A study of Homo sapiens with 6 samples.

Results

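EPH receptors and their ephrin ligands were followed in DLD1 colorectal cancer cells with and without a change in p85β, the regulatory subunit of PI3-kinase encoded by PIK3R2. The 10 genes studied were 7 receptors (EPHA1, EPHA2, EPHA4, EPHB2, EPHB3, EPHB4 and EPHB6) and 3 ephrins (EFNA1, EFNB1 and EFNB2). They were found by their GENCODE symbols among 58884 Ensembl genes in the deposited table, and all 10 had enough counts to be tested. RNA was sequenced from 3 libraries of parental DLD1 cells and from 3 libraries of p85β KR-AA cells, called mutant libraries below, in which a lysine and an arginine of the endogenous p85β were both replaced by alanine (K477A and R478A). According to the study, these residues lie in a predicted nuclear localization sequence, the change was knocked in with CRISPR/Cas9, and RNA-seq asked whether nuclear p85β affects gene expression. Both conditions carry the PIK3CA helical domain mutation of DLD1 cells, no treatment is named, and the libraries do not name the knock-in clone they came from. The genotype label reads K477A/R478A for every mutant library, whereas the source label of replicate 2 reads K477A/R479A and that of replicate 3 reads K477A/R480A. No label says that the replicates were separate cultures, so the p-values measure the spread between these libraries, which may be technical.

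EPH receptors are the largest family of receptor tyrosine kinases and bind ephrins on neighboring cells. A-type ephrins are attached to the membrane by a lipid anchor and B-type ephrins span it, and each class binds mainly receptors of the same letter. Contact signals into both cells, forward through the receptor and in reverse through the ephrin, and drives repulsion, adhesion and the sorting of cells into territories. In the intestinal crypt, EPHB2 and EPHB3 are known as WNT target genes that keep proliferating cells near the crypt base, while ephrin-B ligands mark the differentiated cells above, and EPHB2, EPHB3 and EPHB4 are often lost as colorectal tumors progress.

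Counts per library were between 20301932 and 20873475 in parental cells and between 20301396 and 26712816 in p85β KR-AA cells. Levels are given as CPM, scaled counts (TMM) relative to library size, or as TPM, which divides each count by the deposited gene length, sums to the same total in every library and can be compared between genes. A gene was called when its fold change was at least 3 with an adjusted p under 0.01 by edgeR's quasi-likelihood test over 16059 genes, the thresholds of the study's methods. By this rule 28.6% of all tested genes were called higher and 17.6% lower in p85β KR-AA cells, and in 83.5% of all tested genes the libraries of the conditions did not overlap in CPM. The median log2 fold change over all tested genes was 0.32. The share of counts in genes over 4000 bases long was 9.49% to 12.1% in parental and 27.7% to 28.9% in mutant libraries, and the part of this shift in the results below was not tested. Scaling by library totals in place of TMM raised the median of all genes by 0.92 on the log2 scale and the share of called genes that were higher from 61.9% to 87.9%. PIK3R2 had from 169.3 to 524.1 estimated counts in parental cells and from 124.5 to 503.1 after the knock-in (log2 fold change -0.93, adjusted p = 0.0558, edgeR), and counts do not show the knocked-in bases.

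Compared with the parental cells, 1 of the 10 genes was called higher (EPHA4, 42.0-fold) and 2 were called lower (EPHB6, 5.23-fold, and EPHB3, 3.14-fold) in p85β KR-AA cells, and 7 were not called. Of all tested genes, 28.6% were called higher and 17.6% lower. At an adjusted p under 0.05 with no fold threshold, 3 genes were higher (EPHA4, EFNA1 and EFNB2) and 7 were lower, where 45.9% of all tested genes were higher and 35.7% lower by the same rule. The largest adjusted p among the 10 was 0.000859 (EPHA2, edgeR). In all 10 genes the parental and mutant libraries did not overlap in CPM, as in 83.5% of all tested genes. With TMM scaling the median log2 fold change of the 10 genes was -1.01, against 0.32 over all tested genes. On the same scale it was -0.51 over the 5 other ephrins and 6.62 over the 4 other EPH receptors tested. The latter rests on receptors with few or no parental counts. With length and GC offsets the median of all tested genes was -0.04, and that of the 10 genes was not computed. The directions of EPHA2 and EPHB4 depended on the scaling, as given with each gene, and their mean TPM was higher in p85β KR-AA cells, while EPHA4, EFNA1 and EFNB2 were higher and EPHB6 was lower under every scaling tried and in TPM. With TMM, the 3 higher genes had the lowest GC content of the 10, 44.8% (EPHA4) to 54.6% (EFNA1). The 7 lower genes had 56.0% (EPHB2) to 62.2% (EPHB3). Among other family genes, EPHA5 (38.8%) was called higher and EPHA10 (63.4%) lower, but EPHA8 (64.1%) and EFNB3 (59.0%) were called higher. No offset for GC content alone was fitted, so its part in these directions was not tested.

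**Figure D1:**
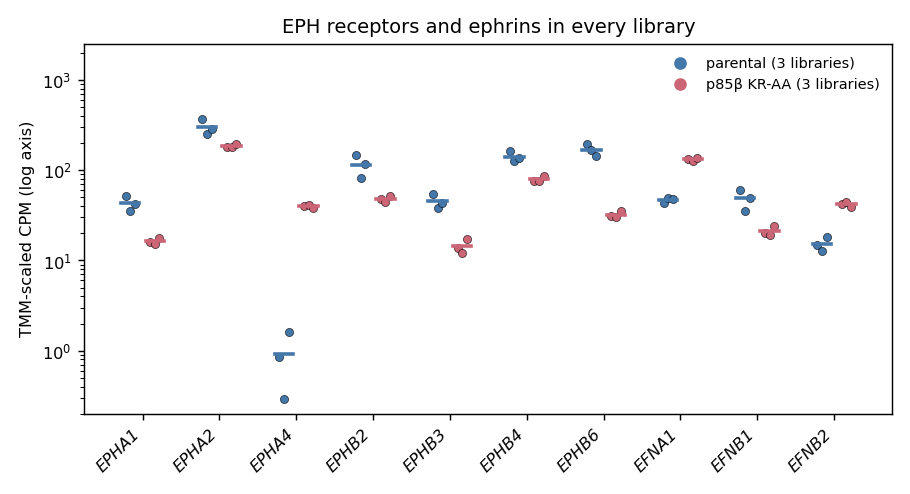
Level of the 10 EPH and ephrin genes in CPM after TMM scaling, on a log axis, with 1 point per library and a bar at the mean of each condition (3 libraries each). EPHA4 lies at 0.291 to 1.6 CPM in parental cells and at 38.3 to 41.1 CPM in p85β KR-AA cells, EFNA1 and EFNB2 are also higher there, and the other 7 genes lie lower on this scale, although the log2 fold changes of EPHA2 and EPHB4 are slightly above 0 when libraries are scaled by their totals.

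Among the A-type receptors, EPHA4, which binds ephrins of both classes and is best known for guiding axons, was nearly silent in parental cells. EPHA4 (ENSG00000116106, GRCh37 chromosome 2, 222282747 to 222438922, minus strand) had estimated counts of 13, 4 and 26 in parental replicates 1, 2 and 3 and of 1479, 1181 and 1051 in the mutant replicates. These corresponded to 0.920 ± 0.658 CPM (SD, n = 3) in parental cells and 39.9 ± 1.46 CPM (SD, n = 3) in mutant cells. All mutant libraries lay far above all parental libraries, and the lowest parental value, 0.291 CPM, was close to the limit that 3 counts give in a parental library (0.185 to 0.218 CPM). The log2 fold change of EPHA4 was 5.39 with a standard error of 0.33 (adjusted p = 1.52e-08, edgeR). An antisense gene, ENSG00000272944, shares 353 exonic bases with EPHA4 and had a mean of 7.33 counts in parental libraries, where EPHA4 had 14.33. Because the sources used here do not say whether counting used strand, the lowest EPHA4 values are uncertain.

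RefSeq (GRCh38.p14) lists 2 start sites for EPHA4, and the 250 bases before each are shown because this was the 1 gene of the 10 that was called higher. The first holds 9 CG dinucleotides and the second 30, where the median of 35116 RefSeq promoter windows of the same length is 11.
EPHA4 first start, chr2:221574203-221574452, minus strand: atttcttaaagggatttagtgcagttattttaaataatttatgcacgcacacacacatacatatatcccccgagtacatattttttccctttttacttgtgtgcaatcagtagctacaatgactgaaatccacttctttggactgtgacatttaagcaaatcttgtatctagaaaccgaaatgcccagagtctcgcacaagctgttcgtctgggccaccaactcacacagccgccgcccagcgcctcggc
EPHA4 second start, chr2:221572305-221572554, minus strand: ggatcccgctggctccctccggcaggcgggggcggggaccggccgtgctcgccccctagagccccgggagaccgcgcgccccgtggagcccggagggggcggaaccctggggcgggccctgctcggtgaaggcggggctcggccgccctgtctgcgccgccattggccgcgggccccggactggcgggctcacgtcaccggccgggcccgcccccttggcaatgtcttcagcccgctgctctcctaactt

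EPHA2, a receptor of epithelial cells that is abundant in many carcinomas, had 373, 249 and 283 CPM in parental replicates 1, 2 and 3 and 181, 179 and 195 CPM in the mutant replicates. EPHA2 (ENSG00000142627, GRCh37 chromosome 1, 16450832 to 16482564, minus strand) thus averaged 302 ± 63.8 CPM (SD, n = 3) against 185 ± 8.43 CPM (SD, n = 3), and parental replicate 1 stood highest. The log2 fold change was -0.70 with a standard error of 0.15 (adjusted p = 0.000859, edgeR) with TMM scaling, but 0.22 (adjusted p = 0.227, edgeR) with scaling by library totals. It was -1.51 with the offset for gene length and -0.09 (adjusted p = 0.425, edgeR) with length and GC offsets. In TPM the order was the opposite, with 56.0 to 96.4 in parental and 119 to 125 in mutant libraries.

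EPHA1, an epithelial receptor and the founding member of the family, had 51.3, 35.3 and 42.4 CPM in parental replicates 1, 2 and 3 and 16.1, 15.4 and 17.9 CPM in the mutant replicates. Every parental library lay above every mutant library, and the spread was wider in parental cells. EPHA1 (ENSG00000146904, GRCh37 chromosome 7, 143087382 to 143105949, minus strand) was 2.61-fold lower, a log2 fold change of -1.38 with a standard error of 0.17 (adjusted p = 7.23e-06, edgeR), and so stayed under the 3-fold threshold. It was called lower with the offset for gene length (-1.87) and had -0.47 with library totals and -0.63 with length and GC offsets. In TPM its libraries overlapped (9.46 to 15.8 in parental and 12.4 to 13.7 in mutant libraries). It overlaps ZYX on the opposite strand by 82 exonic bases, and ZYX had a mean of 2920 counts in parental and 2769 in mutant libraries.

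Of the B-type receptors, EPHB6 showed the largest decrease with TMM scaling. It is a family member whose kinase domain is inactive. EPHB6 (ENSG00000106123, GRCh37 chromosome 7, 142552823 to 142568847, plus strand) had 195, 166 and 145 CPM in parental replicates 1, 2 and 3 and 31.0, 30.1 and 35.6 CPM in the mutant replicates. The means were 168 ± 24.9 and 32.2 ± 2.99 CPM (SD, n = 3 each), with every mutant library far under the lowest parental library. The log2 fold change of EPHB6 was -2.39 with a standard error of 0.15 (adjusted p = 1.85e-08, edgeR). It remained negative but under the 3-fold threshold with scaling by library totals (-1.46) and with length and GC offsets (-1.54).

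EPHB3 (ENSG00000182580, GRCh37 chromosome 3, 184279573 to 184300196, plus strand), a crypt receptor for ephrin-B ligands, had 54.5, 37.7 and 43.1 CPM in parental replicates 1, 2 and 3 and 13.6, 12.2 and 17.3 CPM in the mutant replicates. No mutant library reached the lowest parental library. The log2 fold change of EPHB3 was -1.65 with a standard error of 0.19 (adjusted p = 3.75e-06, edgeR), which is just past the 3-fold threshold. The call was lost without parental replicate 1 (-1.5), without mutant replicate 2 (-1.54), with library totals (-0.73), upper-quartile scaling (-1.46), at least 10 counts in every library (-1.45) and length and GC offsets (-1.0). In TPM the libraries overlapped (7.90 to 13.1 in parental and 7.72 to 10.4 in p85β KR-AA cells).

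The 250 bases before the RefSeq start (GRCh38.p14) of these 2 receptors are shown because they were the genes called lower. The window of EPHB6 holds 3 CG dinucleotides, the fewest among the 10 genes, and that of EPHB3 holds 21. Windows and gene positions come from different builds, and whether the EPHB6 window lies at the start of the annotated gene was not checked.
EPHB6, chr7:142862506-142862755, plus strand: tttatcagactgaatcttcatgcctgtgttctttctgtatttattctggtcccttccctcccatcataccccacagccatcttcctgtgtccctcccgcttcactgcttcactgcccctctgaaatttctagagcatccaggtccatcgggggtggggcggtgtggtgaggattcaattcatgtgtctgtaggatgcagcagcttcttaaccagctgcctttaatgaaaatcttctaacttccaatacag
EPHB3, chr3:184561535-184561784, plus strand: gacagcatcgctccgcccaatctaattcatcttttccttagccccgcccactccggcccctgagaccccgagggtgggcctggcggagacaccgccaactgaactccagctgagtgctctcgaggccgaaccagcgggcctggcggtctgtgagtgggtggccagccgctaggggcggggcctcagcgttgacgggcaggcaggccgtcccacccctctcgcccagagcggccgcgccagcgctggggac

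EPHB2, the other crypt receptor of this pair, had 146, 81.1 and 117 CPM in parental replicates 1, 2 and 3 and 47.8, 44.6 and 51.2 CPM in the mutant replicates. EPHB2 (ENSG00000133216, GRCh37 chromosome 1, 23037332 to 23247993, plus strand) was 2.40-fold lower, a log2 fold change of -1.26 with a standard error of 0.19 (adjusted p = 4.00e-05, edgeR). The libraries did not overlap in CPM, but parental replicate 2 lay well under the other parental libraries. EPHB2 has the longest deposited length of the 10 genes, 10816 bases, and with an offset for gene length its log2 fold change was -3.56, past the call threshold. With length and GC offsets it was -2.22, and EPHB2 was then the 1 gene of the 10 called lower, whereas with library totals it was -0.35 (adjusted p = 0.148, edgeR). In TPM the libraries overlapped, with 6.64 to 13.8 in parental and 11.0 to 12 in p85β KR-AA cells.

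EPHB4, the receptor that pairs with EFNB2 between veins and arteries and is also made by colon epithelium, had 164, 125 and 135 CPM in parental replicates 1, 2 and 3 and 76.3, 76.5 and 86.2 CPM in the mutant replicates. EPHB4 (ENSG00000196411, GRCh37 chromosome 7, 100400187 to 100425145, minus strand) had a log2 fold change of -0.83 with a standard error of 0.14 (adjusted p = 1.13e-04, edgeR) with TMM scaling, but of 0.10 (adjusted p = 0.544, edgeR) with scaling by library totals. EPHB4 was called lower with the offset for gene length (-1.82) and had -0.32 with length and GC offsets. In TPM it was higher, with 25.4 to 38.5 in parental and 45.3 to 50.1 in mutant libraries. EPHB4 shares 69 exonic bases with SLC12A9 on the opposite strand.

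Among the ephrins, EFNA1, a ligand of EPHA2 that is induced by tumor necrosis factor in endothelium, was higher in p85β KR-AA cells. EFNA1 (ENSG00000169242, GRCh37 chromosome 1, 155100352 to 155107375, plus strand) had 43.7, 49.5 and 48.2 CPM in parental replicates 1, 2 and 3 and 133, 126 and 137 CPM in the mutant replicates. The spread within each condition was small beside the gap between them. The fold change was 2.80, a log2 fold change of 1.49 with a standard error of 0.12 (adjusted p = 2.13e-07, edgeR), under the 3-fold threshold. It passed that threshold with library totals (2.41), with upper-quartile scaling (1.68) and with the offset for gene length (2.03).

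EFNB2, the transmembrane ligand of EPHB4 and EPHB2, had 15.0, 12.8 and 18.3 CPM in parental replicates 1, 2 and 3 and 41.8, 44.5 and 39.4 CPM in the mutant replicates. EFNB2 (ENSG00000125266, GRCh37 chromosome 13, 107142093 to 107188010, minus strand) was 2.72-fold higher, a log2 fold change of 1.44 with a standard error of 0.17 (adjusted p = 4.25e-06, edgeR), and its libraries did not overlap. EFNB2 was called higher with library totals (2.36), upper-quartile scaling (1.63) and at least 10 counts in every library (1.64). Its log2 fold change was 0.41 with the offset for gene length and 0.64 with length and GC offsets. An antisense gene, ENSG00000284966, shares 1822 exonic bases with EFNB2 and had a mean of 13.21 counts in mutant libraries, where EFNB2 had 1296.46.

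EFNB1 (ENSG00000090776, GRCh37 chromosome X, 68048864 to 68062003, plus strand), the other B-type ligand among the genes studied, went the opposite way in CPM. It had 60.9, 35.6 and 49.4 CPM in parental replicates 1, 2 and 3 and 20.4, 19.3 and 24.3 CPM in the mutant replicates. It was 2.28-fold lower, a log2 fold change of -1.19 with a standard error of 0.20 (adjusted p = 9.33e-05, edgeR). EFNB1 was called lower with the offset for gene length (-1.67). With scaling by library totals the log2 fold change was -0.27 (adjusted p = 0.258, edgeR), with length and GC offsets it was -0.34, and in TPM the libraries overlapped (9.55 to 18.8 in parental and 15.6 to 18.6 in p85β KR-AA cells).

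**Figure D2:**
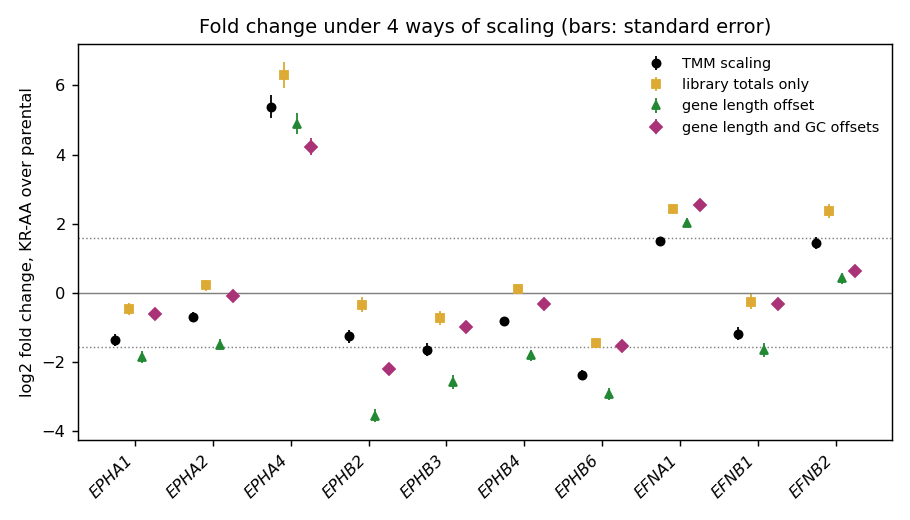
Log2 fold change of p85β KR-AA over parental cells for the 10 genes, with its standard error, under TMM scaling, scaling by library totals and offsets for gene length alone or with GC content. Dotted lines mark a 3-fold change. EPHA4, EFNA1 and EFNB2 lie above 0 and EPHB6 below 0 under each of the 4, whereas EPHA2 and EPHB4 lie just above 0 (0.22 and 0.10) with library totals.

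Ratios between members within a library do not depend on how libraries are scaled against each other, though offsets for length or GC would change them. They are given per kilobase of gene length for pairs chosen after the values were seen. EFNB2 over EFNB1 was 0.183, 0.266 and 0.275 in parental replicates 1, 2 and 3 and 1.52, 1.71 and 1.20 in the mutant replicates. Per kilobase, EFNB1 was the more abundant of these B-type ligands in every parental library and EFNB2 in every mutant library, but their log2 fold changes lay closer with length and GC offsets (0.64 and -0.34) than with TMM alone (1.44 and -1.19). EPHB4 over EPHB6 went from 0.666, 0.594 and 0.734 to 1.95, 2.01 and 1.91, so that the order of these B-type receptors also turned over. EPHA4 over EPHA2 went from 0.00272, 0.00137 and 0.00666 to 0.261, 0.269 and 0.231. EFNA1 over its receptor EPHA2 averaged 0.412 ± 0.105 in parental and 1.82 ± 0.0437 in p85β KR-AA cells, and EFNB2 over EPHB4 averaged 0.107 ± 0.0225 and 0.516 ± 0.0632 (SD, n = 3). In each of these pairs the libraries of the conditions did not overlap, which is no test, since the pairs were chosen with their values known. EPHB3 over EPHB4 was 0.327 ± 0.0156 in parental and 0.185 ± 0.0213 in p85β KR-AA cells, again without overlap.

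The order of the 10 genes in TPM differed between the conditions. In parental cells EPHA2 stood first with 76.7 ± 20.2 TPM (SD, n = 3), followed by EPHB6, EPHB4, EFNA1, EFNB1, EPHA1, EPHB2, EPHB3, EFNB2 and, at 0.285 ± 0.221 TPM, EPHA4. Neighbors in this order whose libraries overlapped were EPHA2 and EPHB6, EPHB4 and EFNA1, EFNB1 and EPHA1, EPHA1 and EPHB2, and EPHB2 and EPHB3. In p85β KR-AA cells EFNA1 stood first with 221 ± 3.24 TPM, followed by EPHA2 with 122 ± 3.15, EPHB4, EPHA4 with 30.8 ± 1.95, EFNB2, EPHB6, EFNB1, EPHA1, EPHB2 and EPHB3. EFNB2 and EPHB6 were the only neighbors in that order whose libraries overlapped.

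The 10 genes were also set against the other 12 genes of the family in the annotation, 9 of which could be tested. Of these 9, 5 were called higher, 2 were called lower and 2 were not called, where 28.6% of all tested genes were called higher and 17.6% lower. EPHA5 and EPHA3, receptors best known from the nervous system, had no count in any parental library and 684, 527 and 330.02 and 197, 138 and 72 counts in the mutant replicates. Against a limit of 3 counts in a parental library they were at least 74.8-fold and at least 19.5-fold higher. EFNA5, a ligand of those receptors, had 45, 12 and 27 counts in parental and 1524, 1316 and 1243 in mutant libraries, which is 23.7-fold higher (adjusted p = 2.33e-08, edgeR). EFNB3 (1, 0 and 0 against 63, 54 and 54 counts) and EPHA8 (1, 0 and 1 against 21, 18 and 17 counts) were called higher at much lower levels. Against the limit of 3 counts EFNB3 was at least 8.49-fold higher and EPHA8 at least 2.78-fold, which is under the 3-fold threshold. EPHA8 lost its call with the offset for gene length (log2 fold change 2.44). EPHA10, a receptor with an inactive kinase domain like EPHB6, fell from 24.6 ± 5.26 to 8.0 ± 0.831 CPM, and EFNA2 fell from 6.40 ± 1.51 to 0.950 ± 0.437 CPM (SD, n = 3 each). EFNA2 lost its call with length and GC offsets (log2 fold change -1.33). The call of EPHA10 was kept on the same side in 8 of 16 alternatives and was lost without parental replicate 1 (-1.44), without mutant replicate 1 or 2 (-1.57 each), with library totals (-0.70) and with length and GC offsets (-0.51), and its TPM overlapped (5.83 to 9.87 in parental and 6.13 to 7.16 in mutant libraries). EPHA6 and EPHB1 had no count in parental libraries and at most 20 and 17 counts in a mutant library, and EPHA7 had no count in any library.

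EFNA4, EFNA3 and EFNA1 lie next to each other within 71163 bases of chromosome 1 (GRCh37), and their changes differed. EFNA1 was higher (log2 fold change 1.49), EFNA3 had -0.51 (standard error 0.13, adjusted p = 0.00274, edgeR) and EFNA4 -1.55 (standard error 0.14, adjusted p = 5.05e-07, edgeR), neither called. The sign of EFNA3 turned with library totals (0.41) and with offsets for length and GC content (1.07), and that of EFNA4 with the latter (0.21), but the order EFNA1, EFNA3, EFNA4 held in all 17 settings. EFNA1 over EFNA4 per kilobase was 0.659, 0.699 and 0.686 in parental and 6.07, 5.21 and 5.56 in mutant libraries. EFNA3 and EFNA4 share exons with the readthrough gene EFNA4-EFNA3, which had a mean of 4.82 and 11.23 counts.

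As a share of the summed TPM of its class, EPHA2 held 78.4% ± 0.476 of the A-type receptors in parental and 67.8% ± 1.44 in mutant cells (SD, n = 3 each). EPHA4 held 0.280% ± 0.213 and 17.2% ± 1.03. Among the B-type receptors, EPHB6 went from 47.8% ± 3.54 to 26.3% ± 0.168 and EPHB4 from 31.6% ± 1.13 to 51.5% ± 1.00, while EPHB3 overlapped between conditions (9.54% to 10.8% and 8.64% to 10.5%). The leading member of the B-type receptors was thus EPHB6 in every parental library and EPHB4 in every mutant library. EFNA1 went from 27.9% ± 1.04 to 65.2% ± 1.01 of the A-type ephrins, while EFNA4 went from 41.0% ± 0.719 to 11.7% ± 0.719. EFNB2 went from 19.3% ± 3.40 to 57.2% ± 4.26 of the B-type ephrins, and EFNB1 from 80.6% ± 3.34 to 39.3% ± 4.19. The summed A-type ephrins were 107, 99.6 and 118 TPM in parental and 334, 338 and 344 TPM in mutant libraries, and they were also higher in CPM (155 to 163 against 227 to 242). The summed A-type receptors were higher in mutant libraries in TPM (71.4 to 122 against 177 to 182) but lower in CPM (306 to 456 against 268 to 276). The summed B-type ephrins were higher in TPM (12.1 to 22.3 against 41.5 to 43.9) and overlapped in CPM (48.4 to 76.0 against 63.9 to 65.7). The summed B-type receptors overlapped, with 82.8 to 123 and 88.5 to 98.9 TPM, and in CPM they were lower in p85β KR-AA cells (410 to 560 against 164 to 191).

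**Figure D3:**
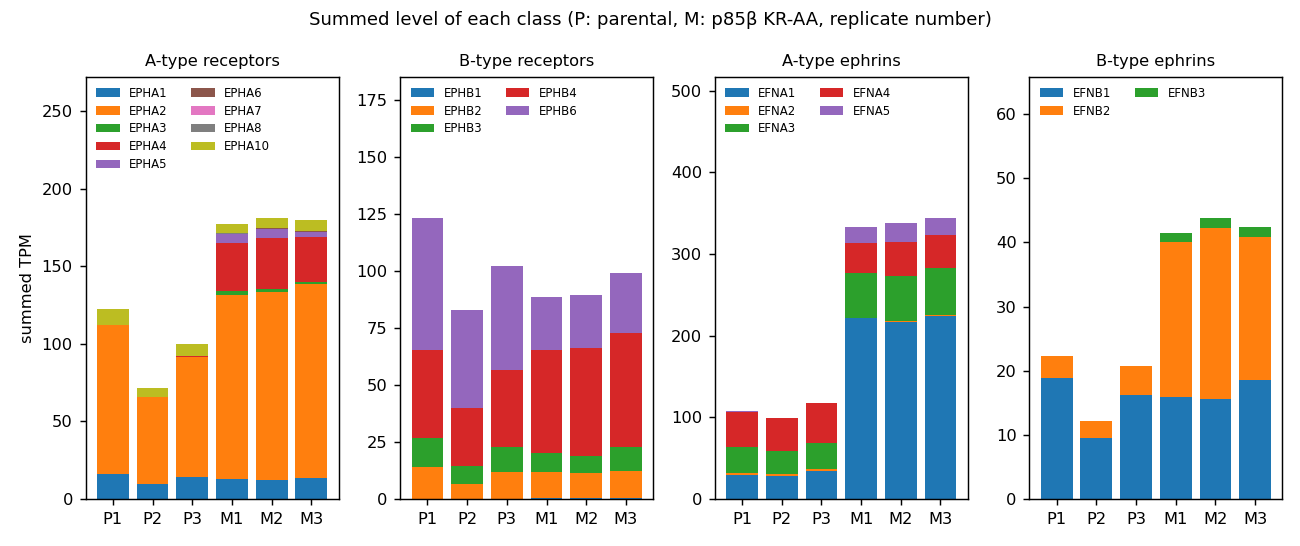
Summed TPM of the A-type receptors, B-type receptors, A-type ephrins and B-type ephrins in each library (P, parental; M, p85β KR-AA; the number is the replicate), with each gene as a stacked segment. The EPHB6 segment is the tallest of the B-type receptors in the parental bars and the EPHB4 segment in the p85β KR-AA bars, and EFNA1 and EFNB2 take more of the ephrin bars in p85β KR-AA cells.

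Promoter windows of all 10 genes were found in RefSeq (GRCh38.p14). The TCF/LEF core ATCAAAG, searched on both strands, was in none of the members' 250-base windows and in 2.26% of all 35116 windows, and this says nothing about these factors elsewhere in the genes. The E-box CAGGTG, searched on both strands and bound by SNAI and ZEB repressors, was in the windows of EPHA1, EPHB2 and EFNB2 and in 17.5% of all windows. A member with this motif was higher (EFNB2) and members with it were lower (EPHA1 and EPHB2) in CPM. The number of CG dinucleotides ranged from 3 (EPHB6, whose window was not checked against the start of the annotated gene) to 42 (EPHB2). The window of EFNB2, which holds 40 CG dinucleotides, is shown with the E-box in capitals.
EFNB2, chr13:106535663-106535912, minus strand: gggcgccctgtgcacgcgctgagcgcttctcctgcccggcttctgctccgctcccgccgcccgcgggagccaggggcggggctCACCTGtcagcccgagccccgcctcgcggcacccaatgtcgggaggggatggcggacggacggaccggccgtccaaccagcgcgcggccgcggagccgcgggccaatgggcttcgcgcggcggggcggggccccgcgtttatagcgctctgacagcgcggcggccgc

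Around the receptors, lists of known partners were described by their counts, beside 28.6% of all tested genes called higher and 17.6% called lower. Among the genes of these lists named as called, those that rose were 3752 (RASA1) to 12217 (ABL2) bases long. Those that fell were 1124 (PSENEN) to 4591 (RGS3) bases long. With an offset for gene length the calls of these lists went from 27 higher and 10 lower to 4 and 15, and with length and GC offsets to 4 and 7. The part of length in the change of each gene was not tested. Of 14 tested exchange factors and GTPase regulators that act with EPH receptors, 8 were called higher and 2 lower. RASA1, a Ras GTPase-activating protein that binds EPHB2, rose from 0.833 ± 0.642 to 16.1 ± 4.02 CPM, and TIAM1, a Rac exchange factor, rose from 3.04 ± 0.337 to 21.4 ± 0.634 CPM (SD, n = 3 each). ARHGAP35, a GTPase-activating protein, rose from 25.2 ± 8.37 to 111 ± 5.86 CPM, and RGS3, which binds the tail of B-type ephrins, fell from 120 ± 19.1 to 32.9 ± 3.66 CPM. Of 23 tested adaptors, kinases and phosphatases, 10 were called higher and 1 lower. CBL, a ubiquitin ligase that sends EPH receptors for degradation, rose from 4.37 ± 0.917 to 61.5 ± 3.51 CPM, PTPN13 from 1.19 ± 0.158 to 16.7 ± 4.41 CPM and ABL2 from 4.35 ± 2.33 to 47.6 ± 4.08 CPM. The gene called lower was the adaptor SH2D3A, which fell from 160 ± 19.1 to 30.9 ± 1.76 CPM. SRC and FYN, kinases that relay ephrin signals, were not called, with log2 fold changes of -0.28 and -0.15.

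Of 9 tested partners of ephrin reverse signaling, 2 were called higher and 3 lower. TNIK rose from 2.55 ± 0.860 to 23.1 ± 2.50 CPM, while PARD6A, a polarity protein that binds EFNB1, fell from 67.4 ± 16.9 to 5.75 ± 0.690 CPM and PICK1, a PDZ protein, from 94.0 ± 11.6 to 15.5 ± 0.997 CPM. Of 9 genes listed with the proteases of EPH receptors and ephrins, among them subunits of gamma-secretase, 4 were called higher and 2 lower. ADAM10, which cuts ephrins at cell contacts, rose from 9.61 ± 0.999 to 51.8 ± 10.8 CPM and ADAM17 from 13.0 ± 1.36 to 52.9 ± 1.06 CPM. NRDC rose from 24.1 ± 6.09 to 85.4 ± 7.25 CPM, whereas PSENEN, a gamma-secretase subunit, fell from 29.8 ± 3.87 to 7.85 ± 1.03 CPM.

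Of 12 crypt WNT target genes other than the receptors, 3 were called higher and 2 lower, beside 28.6% and 17.6% of all tested genes. SOX9 rose from 50.9 ± 17.2 to 219 ± 9.28 CPM and RNF43 from 17.3 ± 9.95 to 64.6 ± 3.16 CPM, while ASCL2, a stem cell regulator, fell from 242 ± 61.5 to 19.4 ± 2.52 CPM and NOTUM from 18.7 ± 2.66 to 3.78 ± 0.696 CPM. LGR5, at a lower level, was also called higher and rose from 1.84 ± 0.548 to 7.67 ± 1.06 CPM. AXIN2, another WNT target, was not called, with a log2 fold change of 0.19. The crypt receptors EPHB2 and EPHB3 were both lower in CPM, but in TPM the libraries of the conditions overlapped for each of them. Over these 5 lists 27 genes were called higher and 10 lower, and with an offset for gene length 4 were called higher and 15 lower. With length and GC offsets 4 were called higher and 7 lower, and with library totals 38 and 3.

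**Figure D4:**
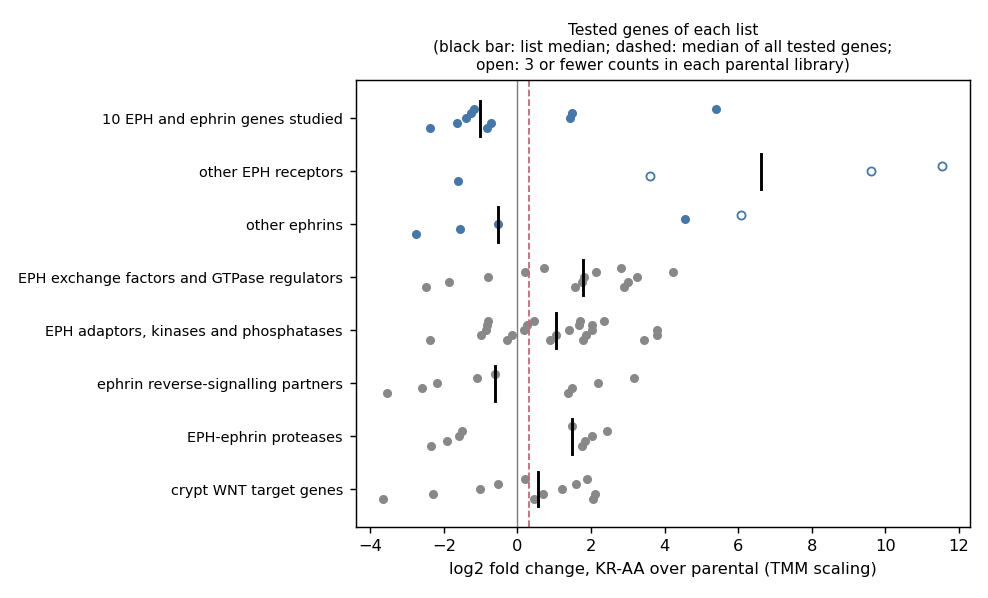
Log2 fold change of p85β KR-AA over parental cells (TMM scaling) for the tested genes of each list, with 1 point per gene, a black bar at the median of the list and a dashed line at the median of all tested genes (0.32). Open points are genes with 3 counts or fewer in each parental library, whose fitted value is not a measured size. The median of the 10 EPH and ephrin genes is -1.01, and those of the other ephrins (-0.51) and the reverse-signaling partners (-0.60) also lie below the dashed line. Those of the other EPH receptors (6.62), the exchange factors (1.79), the proteases (1.49), the adaptors (1.06) and the crypt WNT target genes (0.56) lie above it.

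Markers of other cell types were measured in the same libraries, and their part in the EPH and ephrin results was not tested. In bulk RNA, fewer cells of a type and less RNA per cell cannot be told apart. The colon epithelial markers, of which CDX1 had at most 3 counts in a library, summed to 57700 to 79700 CPM in parental and 9110 to 10600 CPM in p85β KR-AA cells, and of 11 tested 2 were called higher and 6 lower. KRT8, KRT18 and KRT19 carried nearly all of this sum, and the other 9 summed to 1210 to 1290 CPM and 941 to 980 CPM. CDH1 rose (log2 fold change 1.82), EPCAM was not called (-0.86), and KRT8 fell by 3.07 on the log2 scale. The fibroblast and mesenchymal markers summed to 7.72 to 10.4 CPM in parental and 6320 to 7230 CPM in p85β KR-AA cells, of which FN1 (4990 ± 408 CPM, SD, n = 3) and VIM (1770 ± 70.1 CPM) made up nearly all. Of 9 tested, 7 were called higher, while PDGFRA and COL1A2 had no count in mutant libraries. Of 7 tested neuronal markers, 5 were called higher, although ELAVL4 and DCX had no count in any library. Their sum was lower (523 to 610 against 350 to 371 CPM) through TUBB3 alone (520 to 607 against 204 to 224 CPM), while the other 11 went from 2.78 to 3.78 CPM up to 145 to 147 CPM, most of it NEFL (132 ± 1.97 CPM, SD, n = 3). Endothelial markers summed to 12.5 to 15.1 and 4.67 to 5.39 CPM, with 1 of 4 tested called higher and 2 lower and EMCN at 0 throughout. Blood markers summed to 55.6 to 72.7 and 38.8 to 47.6 CPM, and of 3 tested 1 had an adjusted p under 0.05 (edgeR) and none passed the fold threshold, with MS4A1 at 0.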

How the data were processed

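Paired-end RNA-seq reads of 3 parental and 3 p85β KR-AA libraries were trimmed by the authors with SeqPrep and Sickle. The values the authors deposited are estimated counts, not normalized, with a gene length in another column. The submitters' processing notes name HISAT2 2.1.0, RSEM 1.3.1, DESeq2 1.24.0 and the build hg18 without giving their roles, and the strand setting of the counting is not given in the sources used here. Symbols, GRCh37 positions and GC content were joined by identifier from GENCODE release 44 lifted to GRCh37, which annotated 56745 of 58884 genes. The build behind the counts was not settled, so positions are those of the annotation.

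Estimated counts were rounded and genes were filtered with filterByExpr (minimum count 10, minimum total 15). Libraries were scaled with TMM and compared with edgeR 4.0.16 in R 4.3.3 (quasi-likelihood test, Benjamini-Hochberg adjustment over 16059 genes, no covariate). The 3 libraries of a condition were not copies, as chi-square per degree of freedom between replicates was 4.08 to 35.8. A floor of 3 counts, which covers counting error only, was worth 0.0818 to 0.109 CPM in mutant libraries. TPM, ratios and class shares were computed from the counts and the deposited length and were not tested. With 3 libraries against 3, an exact permutation test cannot go below p = 0.1 and none is given.

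The alternatives were DESeq2 1.42.0, other scalings and filters, offsets for length and GC content (splines with 5 degrees of freedom), a replicate block, leaving out each library and other thresholds. The code was tested on simulated data. Without a length bias, edgeR recovered 95% of the changed genes with 0 false calls. With a simulated length bias and no offset, as in the main fit, it recovered 59.5% with 1834 false calls. With the length offset it recovered 93.8% with 0 false calls. The size of the simulated bias was set and not fitted to these libraries. All 10 members, every other family gene tested, and up to 3 called genes per direction and list (average log2 CPM of at least 3, no overlap between conditions, largest change) are named. One further gene list is not reported here. SRC, FYN, AXIN2, LGR5 and the markers were named after their values were seen. Likeness of pattern between genes was not ranked, since 6 libraries in 2 conditions give most changed genes the same pattern. Members and lists were chosen with earlier results of these data known.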

Additional observations from a re-analysis of the deposited data

How the results depend on the processing

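Of 159 alternative values of the 10 genes' log2 fold changes, 131 kept their direction and their side of the call threshold, 18 passed it, 8 lost it and 2 changed sign. An uncalled gene counted as kept whenever its sign held, as for EPHA2 at -0.09 with length and GC offsets (adjusted p = 0.425, edgeR). The alternatives include fits that left out a library or added a block, besides other scalings and offsets. With scaling by library totals EPHA2 had 0.22, EPHB4 0.10 and EFNA3 0.41, and with length and GC offsets EFNA3 had 1.07 and EFNA4 0.21. Against 1 member called higher and 2 lower, 3 were called higher and 0 lower with library totals (where EPHB3 and EPHB6 kept an adjusted p under 0.01 by edgeR but not the fold), and 3 higher and 7 lower at an adjusted p under 0.05 with no fold threshold. The counts were 3 and 1 with upper-quartile scaling, and 2 and 1 with at least 10 counts in every library, where EPHA4 was not tested. They were 2 and 6 with the offset for gene length, 2 and 1 with offsets for length and GC content, and 1 and 1 with the fold change tested against 3. With each library left out in turn, 1 member was called higher and 1 to 2 lower, the lower count without parental replicate 1 and without mutant replicate 2 (EPHB3). DESeq2 and no filter gave 1 and 2. Over all genes, library totals gave 7052 called higher and 973 lower against 4597 and 2825, and offsets for length and GC content gave 2230 and 1677. The causes were not tested. With the replicate number as a block, 1 member was called higher and 2 lower, and 2 and 6 with the block and the length offset together. All-gene counts moved to 4626 and 2827. Same-numbered libraries had correlations of their deviations of -0.136, 0.119 and -0.0447, and others of -0.175 to 0.234. These values show no pairing by number. They cannot exclude it, since deviations from the mean of 3 libraries depend on one another. Depth limits EPHA4, EPHA3, EPHA5, EPHA8 and EFNB3 in parental cells, where a library held 26 counts or fewer of each.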
